A study of Populus tomentosa with 6 samples.

Results

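Of 27209 genes measured in poplar leaves (Populus tomentosa, Chinese white poplar), 63 were abundant with similar shares of gene counts in heat and control. They were chosen by their own values. Each had at least 100 CPM (counts of the gene per 1000000 gene counts of the library) in each of 6 libraries, and its highest CPM was at most 1.4 times its lowest. The 63 genes were 8.97% of the 702 genes that reached 100 CPM in every library, and the other 639 genes of this abundance are used below for comparison. Because the choice used both groups, the closeness of heat to control in these genes is set by the rule and is given as a description. What it did not use are the genes next to the chosen ones. The choice of the 63 used all 6 libraries. Libraries left out below are read for longer lists, chosen by the same limits on fewer libraries, each of which holds the 63.

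The heat group was 3 leaf libraries from plants grown for 75 days and then warmed from the start of the light period, held at 37 °C for 2 h and at 45 °C for 5 h, with 0.5 h for each rise. The control group was 3 leaf libraries from plants left at day and night temperatures of 25 °C and 20 °C. The light period was 16 h (350 µmol per m2 and s) in both groups and the dark period 8 h. No genotype or transgene distinguishes the groups in the labels, and whether each library is a separate plant is not stated. Differences between libraries may therefore be technical, and the p-values cover only that spread.

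A leaf under severe heat changes a large part of its transcript pool, in which transcripts for chaperones such as heat shock proteins accumulate and many transcripts for photosynthesis and growth decline. Genes whose transcripts hold their place in such a pool are candidates for references in quantitative PCR and often serve basic functions of the cell. Whether either holds for the 63 genes was not tested. CPM is a share of the sequenced pool. A constant CPM therefore means a constant share, and the amount of RNA per cell was not measured. In a whole leaf, fewer cells of a type and less RNA per cell cannot be told apart. None of the 27209 identifiers (0) matched the reference gene table used here, so the functions of the 63 genes are not given, lists of known reference genes were not applied and the leaf's marker genes were not checked. Gene lengths were not used either, so CPM values compare a gene between libraries and do not rank transcript numbers between genes.

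The heat libraries held 7257659, 7564724 and 7761387 gene counts and the control libraries 7345665, 6466647 and 8530622. At these depths the lowest count of any of the 63 genes in any library was 680 and the highest was 8244, so their values rest on many reads. Of all 17458 genes tested between heat and control, 56.8% passed an adjusted p of 0.05, with 28.1% higher and 28.7% lower in heat (edgeR quasi-likelihood test, libraries scaled by the trimmed mean of M-values, TMM, described below). The steady genes were set against that background.

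The ratio limit was applied within each group and over all 6 libraries. Of the 702 abundant genes, 450 stayed within a ratio of 1.4 over the 3 heat libraries, 416 did so over the 3 control libraries and 287 did so in both groups taken separately. Only 63 of these 287 also stayed within 1.4 over all 6 libraries. Of the 224 genes that were tight within each group but not over all 6 libraries, 102 had every heat library above every control library and 77 had every heat library below every control library. Of all tested genes, 26.9% lay above and 36.7% below in this way. A ratio over 6 libraries is never smaller than over 3 of them, so not every loss is a difference between groups. The median absolute difference between the group means of the 224 was 0.71 on the log2 scale. The 224 were picked from these same values, and being tight within each group but not over both favours groups that lie apart. The counts and the difference are therefore descriptions, and nothing is read from them against all tested genes. The other 415 abundant genes were outside the limit within at least 1 group.

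Most of the 63 genes lay near the limits of the rule. The ratio of highest to lowest CPM had a median of 1.33 and ran between 1.11 and 1.398, with 5 genes at or below 1.2, 17 between 1.2 and 1.3 and 41 above 1.3. Mean CPM over the 6 libraries had a median of 160.2, with 45 genes under 200 CPM, 14 at 200 to 400 CPM and 4 above 400 CPM. None (0) of the 45 abundant genes with a mean of 1000 CPM or more was in the set. By mean CPM, the steady genes were 31.9% of the abundant genes at 100 to 150 CPM, 12.2% at 150 to 200 CPM, 5.17% at 200 to 400 CPM and 3.10% at 400 to 1000 CPM. Part of this decline is built into the rule, since a gene whose mean is close to 100 CPM can reach 100 CPM in every library only if its values lie close together.

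**Figure D1:**
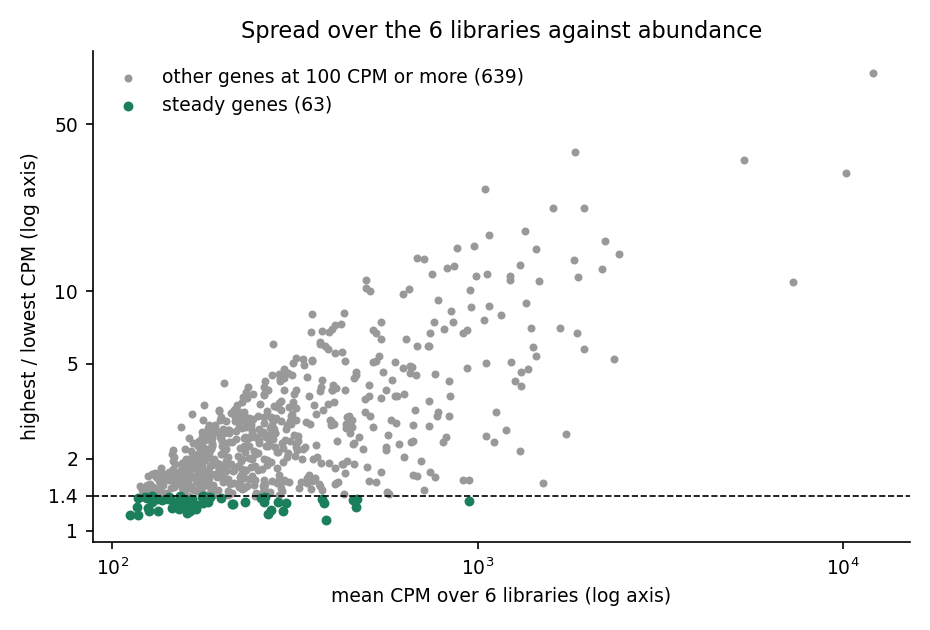
Each point is 1 of the 702 genes with at least 100 CPM in every library, with mean CPM over 6 libraries on the x axis and the ratio of its highest to its lowest CPM on the y axis, both on log axes. The 63 steady genes (green) lie under the dashed limit of 1.4, mostly under 200 CPM, while the other 639 genes (grey) have a median ratio of 2.31 and reach 81.6.

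The most abundant of the steady genes was POPTR_0014s02550. It had 904.8, 1090 and 1002 CPM in the heat libraries, against 817.4, 1038 and 816.8 CPM in the control libraries. The groups overlapped, because control library 2 lay above heat libraries 1 and 3. Its mean was 998.8 ± 92.5 CPM in heat and 890.7 ± 127.5 CPM in control (SD, n = 3 each). By mean CPM it ranked 65 in heat and 73 in control among all genes of the table. POPTR_0012s06320, next in abundance, had 400.1, 518.1 and 471.3 CPM in heat, against 455.9, 544.02 and 416.1 CPM in control. Its lowest library was a heat library and its highest a control library. POPTR_0016s08580 had 524.4, 458.05 and 442.1 CPM in heat, against 484.2, 459.9 and 417.6 CPM in control, so that here the highest library was a heat library and the lowest a control library.

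The tightest of the 63 was POPTR_0014s14670. It had 402.9, 363.001 and 394.1 CPM in the heat libraries, against 368.8, 394.2 and 381.4 CPM in the control libraries, a ratio of highest to lowest of 1.11. Heat held both its highest and its lowest value, so that the control libraries lay inside the range of the heat libraries. POPTR_0002s24890 followed with a ratio of 1.16 and had 124.4, 111.4 and 121.9 CPM in heat, against 107.1, 124.3 and 116.6 CPM in control. POPTR_0008s14650 had a ratio of 1.17, with 105.5, 122.8 and 107.6 CPM in heat, against 111.6, 105.2 and 116.6 CPM in control. For POPTR_0002s24890 and POPTR_0008s14650 the range of each group overlapped most of the other.

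**Figure D2:**
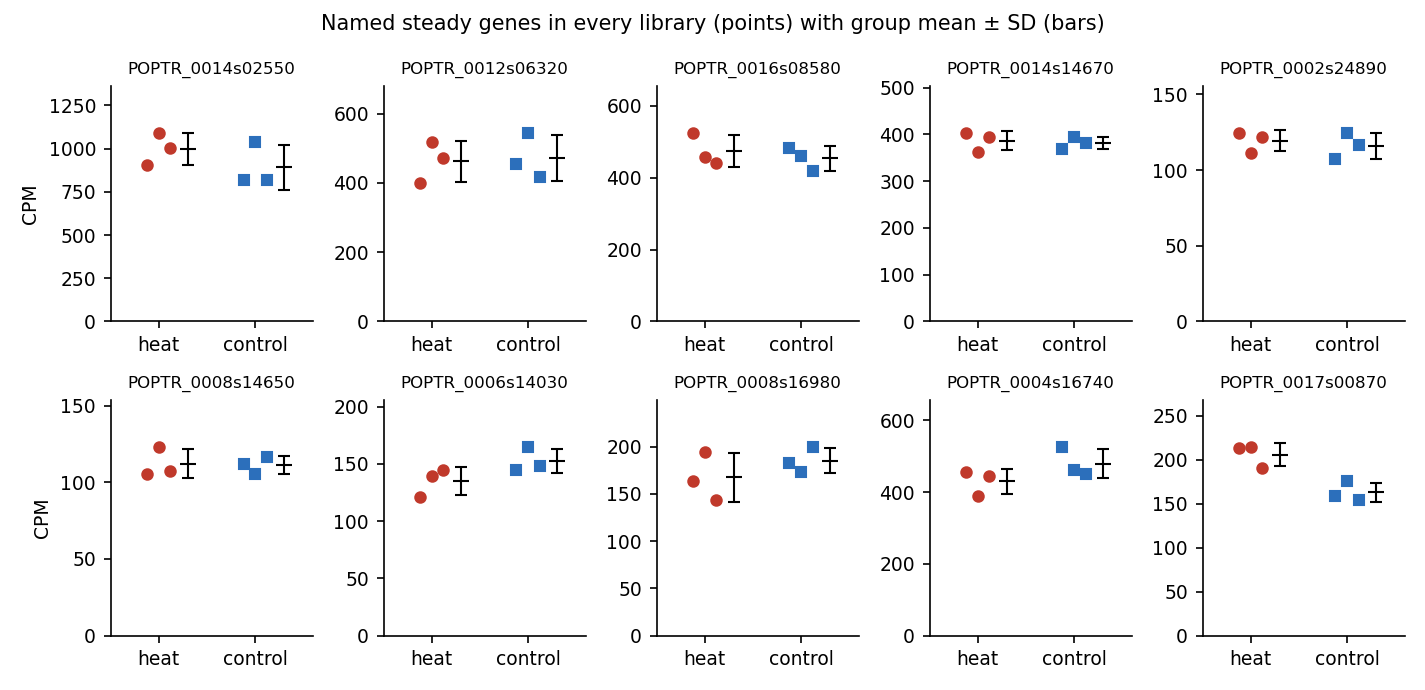
CPM by library totals (y axis, from 0) of 10 steady genes in the 3 heat libraries (red circles) and the 3 control libraries (blue squares), with the mean ± SD of each group as a bar beside its points. The groups overlap in 9 of the 10 panels, and the exception is POPTR_0017s00870, whose heat libraries lie at 190.3 to 214.2 CPM and whose control libraries lie at 154.3 to 175.4 CPM.

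The values at the limits show how fine the choice was. Just inside the ratio limit lay POPTR_0009s13560 (1.398) and POPTR_0017s08170 (1.397), and just outside it lay POPTR_0001s06840 (1.401) and POPTR_0003s13340 (1.405). The first excluded gene, POPTR_0001s06840, had 213.8, 231.5 and 215.2 CPM in heat, against 291.3, 299.5 and 224.5 CPM in control. Just inside the level limit, the lowest library of POPTR_0019s08100 had 100.9 CPM and that of POPTR_0003s03090 had 102.5 CPM. Just outside it, POPTR_0010s05590 and POPTR_0002s25390 each had a lowest value of 99.6 CPM and stayed within the ratio of 1.4.

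The spread inside a group was of like size in heat and control. The coefficient of variation over 3 libraries had a median of 9.80% in heat and 9.56% in control, and it was lower in heat for 32 genes and lower in control for 31. In the other 639 abundant genes the medians were 15.7% in heat and 16.3% in control. The rule limits this spread in both groups alike. Neither the likeness of heat and control nor the gap between the sets of genes is therefore a finding. Even so, the steady genes were not constant to within counting error. Their counts varied over the 6 libraries by 3.19 to 108 times the variance that sampling of reads alone gives (chi-square over its degrees of freedom), with a median of 14.7. The lowest value belonged to POPTR_0002s24890 and the highest to POPTR_0014s02550, the most abundant gene, where counting error is smallest.

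Together the 63 genes held 1.29%, 1.35% and 1.28% of all counts in the heat libraries, against 1.26%, 1.37% and 1.26% in the control libraries. The means were 1.304% ± 0.0394 in heat and 1.297% ± 0.0623 in control (SD, n = 3 each). This likeness is set by the rule, which used library totals. Over TMM library sizes the means were 1.38% ± 0.0482 in heat and 1.22% ± 0.0483 in control (SD, n = 3 each). The other 639 genes at 100 CPM or more held 23.7% ± 0.521 in heat and 31.7% ± 2.60 in control by library totals (SD, n = 3 each). The rule holds the share of the 63 genes level, so the contrast between the sets is no finding. It does not set the size or direction of the change in the other 639. By library totals 323 of the 639 had a fitted log2 change above 0 and 316 below, with a median of 0.03. Of the 63 genes, 28 had a higher and 35 a lower mean CPM in heat, and the log2 ratio of the group means ran between -0.28 and 0.34. The heat and control values overlapped in 60 of the 63. In the other 3 every heat library lay above every control library, and in 0 every heat library lay below. Over all tested genes the values did not overlap for 63.6%, with heat above control in 26.9% and below it in 36.7%. The rule used this contrast, so nothing is read from the low count.

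The 3 genes without overlap, named after their values were seen where the rule for named genes did not hold them, were POPTR_0017s00870, POPTR_0012s07910 and POPTR_0010s12740. POPTR_0012s07910 had 129.1, 133.8 and 134.0 CPM in heat, against 108.0, 129.0 and 118.5 CPM in control, so that control library 2 came within 1 CPM of the lowest heat library. POPTR_0010s12740 had 286.9, 285.1 and 283.5 CPM in heat, against 271.3, 268.3 and 234.4 CPM in control. Its 3 heat libraries lay closer together than those of any other steady gene, with a coefficient of variation of 0.599%.

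How steady these genes were depended on the scaling of the libraries. The rule divides by library totals. TMM scaling, which sets the libraries by the bulk of the genes and trims those that differ most, gave factors of 0.920, 1.02 and 0.900 for the heat libraries and 1.004, 1.17 and 1.01 for the control libraries. On that scale 57 of the 63 genes had a fitted log2 change above 0 and 6 below, with a median of 0.15, while the median of all tested genes was -0.04. By library totals 28 were above 0 and 35 below, with a median of -0.01, while the median of all tested genes was -0.20. Upper quartile scaling gave 39 above and 24 below, with a median of 0.04 against -0.15 for all tested genes. DESeq2 size factors gave 59 above and 4 below, with a median of 0.17 against -0.02 for all tested genes. Under each of these 4 scalings the median of the steady genes stood above that of all tested genes, by about the same amount. The same held for the other 639 abundant genes, with medians of 0.21 under TMM and 0.03 by library totals. Whether the steady genes stood above or below 0 thus changed with the scaling.

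**Figure D3:**
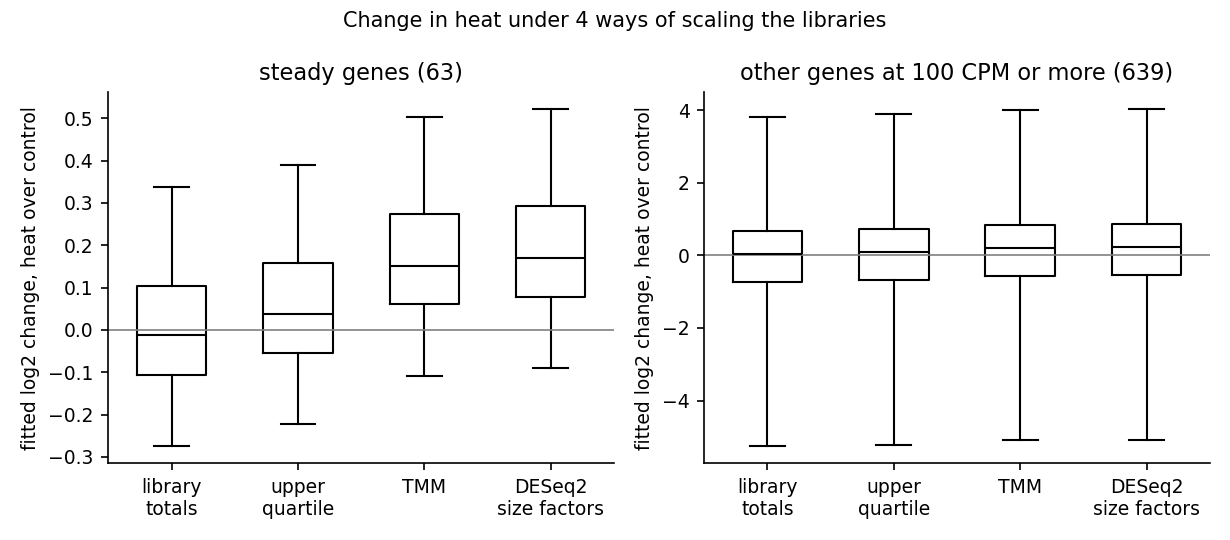
Fitted log2 change of heat over control (y axis, edgeR) under 4 ways of scaling the libraries, for the 63 steady genes (left) and the other 639 genes with at least 100 CPM in every library (right, on a wider axis). Boxes show the median and quartiles and whiskers the full range. The median of the steady genes lies at -0.01 by library totals and at 0.15 under TMM.

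Under TMM scaling 1 of the 63 genes passed the threshold in the comparison of heat with control, higher in heat, and 0 were lower, against 56.8% of all tested genes. At an unadjusted p under 0.05 there were 2, against 62.3% of all tested genes. The gene was POPTR_0017s00870, which had 212.9, 214.2 and 190.3 CPM by library totals in heat, against 159.3, 175.4 and 154.3 CPM in control. It rose by 0.50 on the log2 scale (standard error 0.157, adjusted p = 0.0249, edgeR with TMM scaling). The call was lost by library totals (log2 change 0.34, adjusted p = 0.143) and with upper quartile factors (0.39, adjusted p = 0.0630). It was also lost without heat library 1 (adjusted p = 0.0594) or without control library 1, 2 or 3 (adjusted p = 0.0693, 0.0617 and 0.0635, all by edgeR). DESeq2, which uses its own estimate of the spread, called 4 of the 63 higher and 0 lower, this gene among the 4, against 29.3% higher and 29.5% lower of all tested genes (58.8% in all). By library totals edgeR called 0 of the 63, against 54.8% of all tested genes, 23.1% higher and 31.7% lower. At an unadjusted p under 0.05 there were again 0, against 60.2%. With upper quartile factors it called 0, against 56.8%, 25.3% higher and 31.4% lower, and at an unadjusted p under 0.05 there was 1, against 61.9%. With DESeq2 size factors it called the same gene alone, against 57.0%, 28.5% higher and 28.4% lower.

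The genes with the smallest fitted change under TMM scaling were other genes than the tightest by CPM. POPTR_0006s14030 had a log2 change of -0.01 (standard error 0.162, adjusted p = 0.975, edgeR). By library totals it had 120.8, 139.5 and 144.6 CPM in heat, against 144.4, 164.4 and 148.5 CPM in control, a log2 change of -0.18 on that scale. Only heat library 3 reached the lowest control library. POPTR_0008s16980 and POPTR_0004s16740 had fitted changes of 0.01 each under TMM, and -0.14 and -0.16 by library totals. POPTR_0014s14670, the tightest gene by CPM, had a fitted change of 0.19 under TMM and 0.02 by library totals. The standard errors of the fitted changes in the 63 genes had a median of 0.174 under TMM. An adjusted p above the threshold does not show that a gene was unchanged.

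Applied to TMM-scaled CPM, the same limits gave 80 genes, of which 37 were among the 63. These 37 are 58.7% of the original genes and 46.2% of the 80. With DESeq2 size factors the limits gave 81 genes, with 33 shared (52.4% of the 63 and 40.7% of the 81), and with upper quartile factors 86 genes, with 53 shared (84.1% and 61.6%). Control library 2 had the highest median CPM of the steady genes by library totals (172.1 CPM, against 152.4 to 167.8 CPM in heat and 160.8 and 162.4 CPM in the other control libraries) and the largest TMM factor. By library totals it was the highest library for 18 of the 63 genes and the lowest for 3. Heat library 2 was the highest for 15 and the lowest for 6, while heat library 3 and control library 3 were each the lowest for 15. On the TMM scale the median deviation of the steady genes was -0.14 in control library 2 and between 0.03 and 0.10 in the heat libraries.

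**Figure D4:**
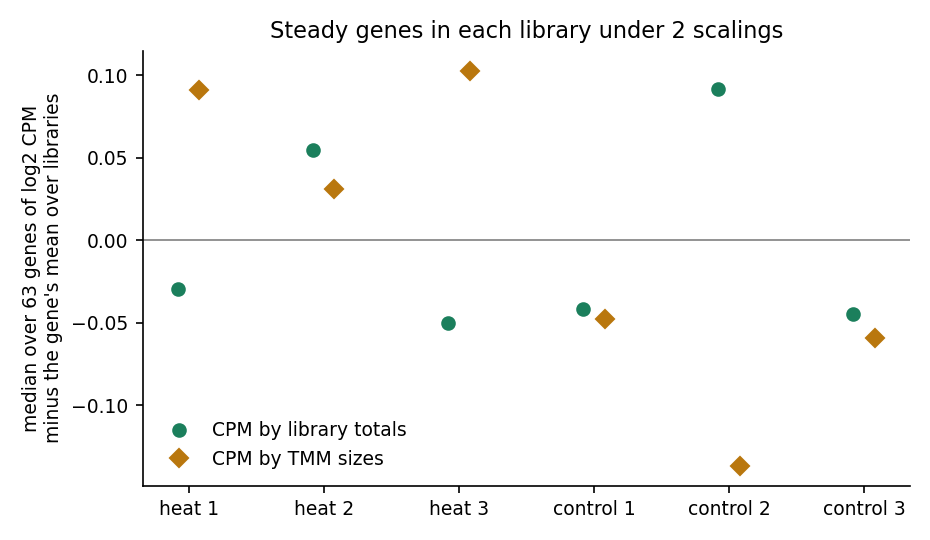
Median over the 63 steady genes of log2 CPM minus the gene's mean over the 6 libraries (y axis), for each library (x axis), by library totals (green circles) and by TMM sizes (orange diamonds). By totals, control library 2 (0.09) and heat library 2 (0.05) stand highest, while under TMM the 3 heat libraries (0.03 to 0.10) lie above the 3 control libraries (-0.14 to -0.05).

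Levels in a library left out were a measure that a choice on the other 5 libraries did not use. The same limits were applied to 5 libraries, which gave between 89 and 102 genes. These genes were then read in the library left out and compared with the mean of the other group. For heat libraries 1 to 3 left out, 85.6%, 85.9% and 88.8% of the chosen genes lay within 1.4-fold of the control mean. For control libraries 1 to 3 left out, 90.6%, 89.2% and 86.8% lay within 1.4-fold of the heat mean. The mean was 87.8% ± 2.03 (SD over 6 libraries, whose lists share genes). Among the other genes at 100 CPM or more in the 5 libraries this share was 29.5% to 33.9%. How many chosen genes kept to 1.4 over all 6 libraries is not given, since the 63 genes themselves nearly fix that count. They also fix most of the shares above, because all 63 are in each list and lie within 1.4-fold by the rule. With them, 83, 85 and 79 chosen genes lay within 1.4-fold for heat libraries 1 to 3, and 87, 91 and 79 for control libraries 1 to 3. The other genes had failed the ratio limit in the 5 libraries. These shares are therefore no check of the 63 genes.

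With a heat and a control library left out together, the ratio of heat to control could be read in libraries that the choice of the list did not use. Of 139 genes chosen without the libraries numbered 1, 121 (87.1%) differed by 1.4-fold or less between heat library 1 and control library 1. Without the libraries numbered 2 the count was 123 of 159 (77.4%), and without those numbered 3 it was 99 of 133 (74.4%). Among the other genes at 100 CPM or more in the 4 libraries used, the shares were 28.4%, 30.6% and 26.1%. All 63 steady genes are in each of these lists and differ by 1.4-fold or less in every pair by the rule. They are therefore 63 of the 121, 123 and 99 genes counted. The other genes had failed the ratio limit in the 4 libraries used. The higher shares of the chosen genes in all 3 pairs are thus set in part by the choice and are no check of the 63 genes. The largest departures were a log2 ratio of 0.82 in the first pair, -1.40 in the second and -2.17 in the third. Nearly all chosen genes stayed within 2-fold, namely 139 of 139, 157 of 159 and 129 of 133. The median log2 ratio of the chosen genes was 0.09, -0.07 and 0.05 in the 3 pairs by library totals, and 0.22, 0.13 and 0.22 on the TMM scale. These shares are descriptions of single libraries and carry no p-value, and the lists of the 3 pairs share genes and libraries.

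**Figure D5:**
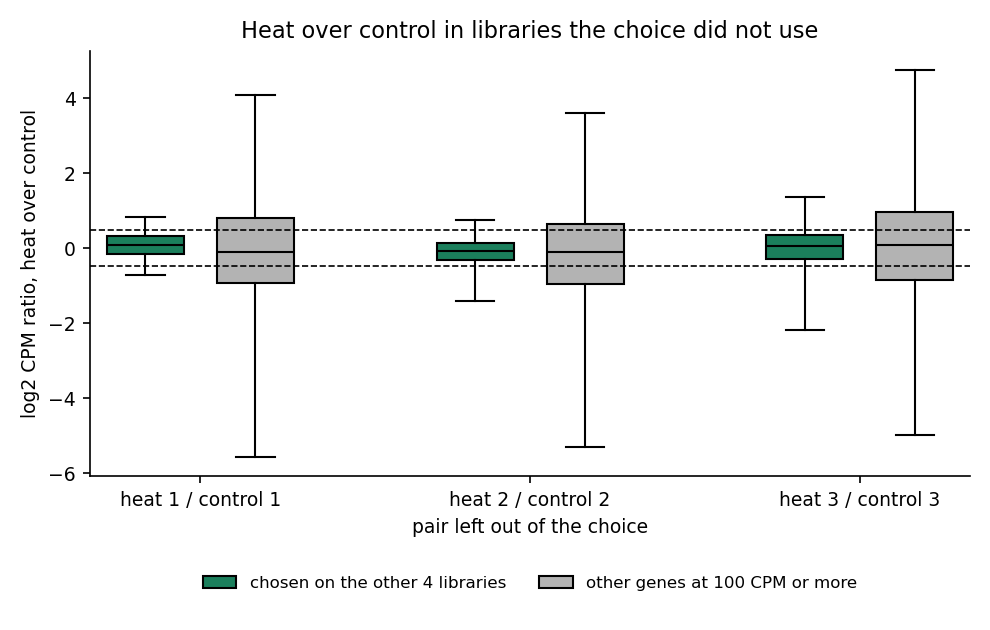
Log2 ratio of CPM by library totals, heat over control (y axis), in the pair of libraries left out of the choice (x axis), for genes chosen by the same limits on the other 4 libraries (green, 139, 159 and 133 genes) and for the other genes at 100 CPM or more there (grey, 656, 588 and 682 genes). Boxes show the median and quartiles, whiskers the full range and dashed lines a 1.4-fold difference. The green boxes lie inside the dashed lines in each pair and the grey boxes reach beyond them. The 63 steady genes are in each green set and lie within the dashed lines by the rule.

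The identifiers were examined for what else the 63 genes share. Identifiers carry a 4-digit number followed by a running number, and the 63 genes were spread over 18 of the 4-digit numbers. The share of the abundant genes that were steady ran between 0% (0 of 47 in number 5) and 22.7% (5 of 22 in number 17) among numbers 1 to 19, with small counts in each. None of them (0 pairs) stood next to or second next to another steady gene in the running order. Their neighbours were taken as the genes 1 and 2 places away on each side. Of 250 such neighbours 181 were tested, of which 51 were higher and 58 lower in heat (60.2%, near the 56.8% of all tested genes; edgeR, TMM scaling). Their median absolute log2 change was 0.89, against 0.95 for all tested genes. Of the 250 neighbours, 6 (2.40%) had at least 100 CPM in every library, against 2.58% of all genes, and 28 had no count in any library.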

How the data were processed

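RNA was sequenced from leaves in 3 heat and 3 control libraries. The authors deposited whole-number read counts per gene, unscaled, with 1 column per library, per the file headers. Tools listed, per the submitters' processing notes, are HTSeq 0.6.1, TopHat2 2.0.12 and CASAVA 1.8. What each did, the build, the annotation, strandedness and how reads with several matches were counted is not given in the sources used here, so near-identical copies and overlapping or antisense genes have uncertain counts.

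Sample titles gave the groups and replicate numbers. CPM was computed from the column totals. The 63 genes, the limits and the lists were chosen with earlier results of these data known. All genes were tested together with edgeR 4.0.16 in R 4.3.3 (filterByExpr defaults, 17458 of 27209 genes kept, all 63 steady genes among them; TMM factors; robust quasi-likelihood test with group as its only term; Benjamini-Hochberg adjustment; threshold 0.05). The standard error is the log2 change over the root of the F statistic. Named genes were the 3 most abundant, the 3 with the smallest ratio, the 3 with the smallest fitted change, 2 on each side of each limit, and up to 2 that rose and 2 that fell past the threshold. Alternatives were other scalings, limits and filters, thinning to the smallest total, DESeq2 1.42.0, limma 3.58.1 (voom), a replicate block and leaving out each library. The fits were tested on simulated data with few changed genes, all raised. That setting does not test the scaling under a change as wide as the one here. Library totals of 6466647 to 8530622 set only the counting noise. Replicates differed by 19.1 to 44.1 times the counting noise (chi-square per degree of freedom) and were counted separately. Whether they are technical repeats is not stated. No identifier (0 of 27209) matched the reference gene table (assembly PTv2, 60139 genes), so gene and marker lists were not applied.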

Additional observations from a re-analysis of the deposited data

How the results depend on the processing

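The number of steady genes followed the limits. A ratio limit of 1.3, 1.5 or 2 gave 22, 102 and 314 genes, and a level limit of 50 or 200 CPM gave 194 and 15. Other scalings gave 80 to 86 genes and thinning to the smallest total gave 65, of which 60 were among the 63. Leaving out 1 library gave 89 to 102 genes, since fewer libraries have to agree. The steady genes called between heat and control numbered 1 as reported, 0 with upper quartile factors, 0 with library totals, 4 with DESeq2 (all higher in heat) and 0 to 1 with 1 library left out, and none (0) was called lower under any alternative. Their median log2 change was 0.151 as reported, 0.0384 with upper quartile factors, -0.0116 with library totals, and 0.15 to 0.20 with 1 library left out. Their share of counts was 1.38% in heat and 1.22% in control over TMM library sizes, and 1.497% and 1.465% without the 20 most abundant genes of each group. It was 1.28% to 1.32% in heat and 1.26% to 1.31% in control with 1 library left out. The mean share of chosen genes that lay within 1.4-fold of the other group in a left-out library was 87.8% as reported, 89.1% when chosen with a ratio limit of 1.3, 83.3% with 1.5, and 79.6% between the libraries of a left-out same-numbered pair. The lists chosen at 1.4 each hold the 63 steady genes, which lie within 1.4-fold by the rule. Over all genes 9918 were called, and 8111 to 10266 under the alternatives. Of all calls, 49.4% were higher in heat as reported and 42.1% by library totals.

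The labels do not say that replicate numbers mark shared plants or days, and the deviations of same-numbered libraries correlated at 0.0487, 0.0998 and 0.178, so they were not paired. With the replicate block 9561 genes and 0 of the 63 were called (POPTR_0017s00870 at adjusted p = 0.0527, edgeR). The steady genes then had a median log2 change of 0.152. Heat library 1 correlated better with control library 2 than with control library 1. Heat libraries 2 and 3 each correlated best with the control library of their own number. Between libraries of different numbers the correlations ran from -0.206 to 0.109. For POPTR_0017s00870 the adjusted p ranged from 0.00174 to 0.143 over 13 alternatives, with no change of direction.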
